A study of Mus musculus with 4 samples.

Results

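Stereocilia, the rods of the hair bundle, are built from parallel actin filaments, and 10 genes whose proteins bundle, cap or shape those filaments were followed here: Espn, Espnl, Eps8, Eps8l2, Fscn1, Fscn2, Pls1, Triobp, Grxcr1 and Xirp2. They were taken by symbol from the 23996 genes of the deposited table, and all 10 were found. Of these, 9 were tested, meaning that they reached at least 1 FPKM in 1 group and were above 0 in both, while Xirp2 did not reach that level. By definition FPKM is the fragment count per kilobase of transcript scaled by all mapped fragments. It is thus a level corrected for transcript length, so genes can be compared within a group. The sums of the group values were 8.87-fold apart, and the program behind them was not named. How the groups were scaled against each other is therefore not known. The study compared original hair cells, sorted by eGFP alone, with new hair cells, sorted by eGFP and tdTomato together, from cochlear epithelium of C57BL/6 mice aged 7 days. The animals of both groups were labelled positive for Sox2-CreER, Atoh1-HA, Atoh1-eGFP and tdTomato. Atoh1 encodes the factor that commits cells to the hair cell fate, and the Cre recombinase that released the Atoh1-HA transgene and tdTomato was driven by Sox2, a gene active in cochlear supporting cells. Tamoxifen, which activates this Cre, was injected on postnatal day 3 at 0.20 mg per g, and control animals received corn oil. The labels do not say which of these treatments the animals behind the original hair cell libraries had. Each group had 2 libraries, which the labels do not tie to separate animals, and the table gave 1 value per gene and group. The values below therefore carry no replicate error, and whether a difference exceeds the spread between libraries could not be measured from them. The authors also deposited a p-value per gene, from a test that the processing notes do not name.

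A stereocilium gains its stiffness as espins, fascins and plastins cross-link the actin filaments. EPS8 proteins sit at the tip, where they cap and bundle the growing ends and set the length of the rod. TRIOBP wraps the filaments of the rootlet that anchors the rod in the cell, GRXCR1 is needed for the rod to reach its normal thickness, and XIRP2 takes part in the repair of the filament core.

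On the deposited scale the 9 tested genes differed in both directions between the groups, with a median difference like that of all tested genes. Grxcr1, Fscn2, Eps8 and Espnl stood 15.3-fold to 159.6-fold lower in new hair cells. Espn was 2.38-fold higher, and Fscn1, Triobp, Eps8l2 and Pls1 differed by 1.45-fold or less. The sizes of these folds, here and for each gene below, belong to the deposited scale, on which the column sums were 8.87-fold apart. With equal sums Espnl stood at -0.77 and Fscn1 at 3.59 in log2(FPKM + 1), new minus original. Of these genes only Pls1 changed direction under the scalings described below. Of the 9 tested genes 4 were higher and 5 lower in the new cells, where 45.3% of all 9026 tested genes were higher and 54.7% lower. The median difference in log2(FPKM + 1), new minus original, was -0.21 over the 9 genes and -0.21 over all tested genes. Its value is that of Pls1, between a group of 4 genes far below 0 and a group of 4 genes near or above 0. At least a 2-fold difference on that scale was reached by 4 genes downward and 1 upward, against a background of 34.9% and 19.9% of all tested genes.

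To let the promoters of these genes be compared, the 250 bases before the RefSeq start are shown for the gene with the largest difference, Grxcr1, and for the espin and fascin pairs, whose members differed in direction. All are from GRCm38.p6, the assembly called mm10 in the labels, and run 5′ to 3′ on the strand of the gene. Capitals mark 3 motifs, each searched on both strands. The motif CAGCTG reads alike on either strand and is a form of the E-box, the class of site that Atoh1 and its relatives bind. The other E-box form searched was CATCTG, which reads CAGATG on the opposite strand. The third motif was the core promoter element TATAAA, which reads TTTATA on the opposite strand. The windows lie at chr4:152152390-152152639 and chr4:152128926-152129175 on the minus strand for the outermost and innermost start of Espn. On the plus strand they lie at chr1:91321825-91322074 for Espnl, chr5:142960105-142960354 for Fscn1, chr11:120361284-120361533 for Fscn2 and chr5:68031585-68031834 for Grxcr1.
Espn outermost start: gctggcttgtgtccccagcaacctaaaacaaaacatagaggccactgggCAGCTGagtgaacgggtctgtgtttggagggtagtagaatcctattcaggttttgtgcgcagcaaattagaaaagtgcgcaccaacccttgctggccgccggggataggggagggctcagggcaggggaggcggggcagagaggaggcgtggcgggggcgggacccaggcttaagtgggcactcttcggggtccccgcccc
Espn innermost start: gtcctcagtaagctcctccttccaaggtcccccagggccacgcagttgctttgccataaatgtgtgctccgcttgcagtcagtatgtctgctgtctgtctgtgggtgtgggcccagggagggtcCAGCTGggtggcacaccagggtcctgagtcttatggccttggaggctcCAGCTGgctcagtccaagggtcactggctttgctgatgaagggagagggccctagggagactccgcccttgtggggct
Espnl: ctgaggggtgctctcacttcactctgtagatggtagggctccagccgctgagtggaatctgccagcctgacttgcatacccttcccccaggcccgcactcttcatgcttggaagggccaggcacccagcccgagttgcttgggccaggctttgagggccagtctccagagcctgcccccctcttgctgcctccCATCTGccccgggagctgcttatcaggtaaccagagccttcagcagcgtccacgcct
Fscn1: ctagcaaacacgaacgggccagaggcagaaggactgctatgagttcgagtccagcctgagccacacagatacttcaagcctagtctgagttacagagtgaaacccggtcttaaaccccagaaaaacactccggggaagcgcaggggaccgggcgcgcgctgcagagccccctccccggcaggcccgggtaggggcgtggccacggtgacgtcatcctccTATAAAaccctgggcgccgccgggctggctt
Fscn2: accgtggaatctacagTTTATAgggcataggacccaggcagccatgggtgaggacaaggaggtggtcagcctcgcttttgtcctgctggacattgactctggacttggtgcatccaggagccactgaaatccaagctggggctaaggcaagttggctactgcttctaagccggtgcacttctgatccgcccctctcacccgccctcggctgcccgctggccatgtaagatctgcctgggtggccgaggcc
Grxcr1: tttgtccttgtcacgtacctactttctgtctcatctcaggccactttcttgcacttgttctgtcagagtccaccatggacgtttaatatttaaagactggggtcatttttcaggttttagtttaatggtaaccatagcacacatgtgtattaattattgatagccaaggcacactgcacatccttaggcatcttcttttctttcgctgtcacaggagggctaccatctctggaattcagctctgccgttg
RefSeq promoters matched 9 of the 10 genes with 12 windows, the gene not matched being Eps8. CAGCTG was found in 2 of the 3 windows of Espn, at 201 bases before the outermost start and at 126 and 78 bases before the innermost one, and in no window of the other genes. CATCTG was found once, 57 bases before the start of Espnl. Of all 32851 windows of the same length, 13.0% held CAGCTG and 14.4% held CATCTG or its complement. TATAAA lay 31 bases before the start of Fscn1 and its complement 234 bases before that of Fscn2, against 12.4% of all windows. Grxcr1 held none of the motifs in its window, which was 42.8% G and C where the median window was 52.4%. FPKM was given per gene, so which start was used in either group is not known.

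Grxcr1, Fscn2, Eps8 and Espnl were the genes at least 2-fold lower in new hair cells. Grxcr1 encodes a glutaredoxin-like, cysteine-rich protein and lies at chromosome 5, 68031835 to 68166398, on the plus strand in mm10. Its level was 847 FPKM in the original and 5.31 FPKM in the new cells, a 159.6-fold difference. It was the most abundant of the 10 genes in original hair cells, where it made up 81.2% of their summed FPKM, and ranked 4 in new hair cells, with 4.88% of the sum. Only 1.63% of all tested genes had a lower difference than Grxcr1, whose log2(FPKM + 1) difference was -7.07. Its p was 0.0129 in the authors' deposited table, and 0.526 after Benjamini-Hochberg adjustment of those p-values over all tested genes.

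Fscn2 encodes the fascin first known from photoreceptors, which also cross-links actin in stereocilia (chromosome 11, 120361534 to 120368173, plus strand). It stood at 59.0 FPKM in the original and 1.74 FPKM in the new cells, 33.9-fold lower. It went from rank 2 to rank 8 among the 10 genes. The p in the authors' deposited table was 0.0256, and 0.526 after Benjamini-Hochberg adjustment.

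Eps8, a capping and bundling protein of the stereocilia tip that is needed for their elongation, stood at 28.3 FPKM in the original and 0.546 FPKM in the new cells (chromosome 6, 137477245 to 137649285, minus strand). This was a 51.7-fold difference, and Eps8 was the only tested member under 1 FPKM in the new cells. Its p was 0.0331 in the authors' deposited table, and 0.526 after Benjamini-Hochberg adjustment. A p below 0.05 before adjustment and a lower level in new hair cells were shared by Grxcr1, Fscn2 and Eps8, 3 of the 9 tested genes, against 8.83% of all tested genes. No member combined such a p with a higher level, as 0.554% of all tested genes did. After Benjamini-Hochberg adjustment none of the 9 had a p below 0.05, against 0% of all tested genes.

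Espnl, which encodes an espin-like actin bundler of stereocilia, stood at 49.3 FPKM in the original and 3.22 FPKM in the new cells, 15.3-fold lower (chromosome 1, 91322075 to 91348303, plus strand). The p in the authors' deposited table was 0.106, and 0.594 after Benjamini-Hochberg adjustment. Of these 4 genes it had the smallest difference, and like the others it stood lower under each of the 4 scalings described below.

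**Figure D1:**
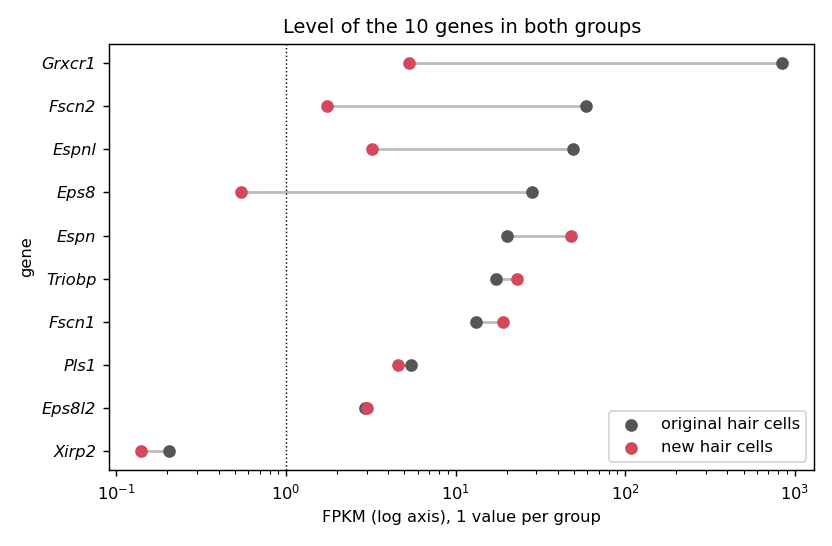
Level of each of the 10 genes in original (grey) and new (red) hair cells, in FPKM on a log axis, 1 value per group and no error. The dotted line marks 1 FPKM. Grxcr1, Fscn2, Espnl and Eps8 have long lines to the left, the other genes short ones.

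The other tested genes, Espn, Fscn1, Triobp, Pls1 and Eps8l2, were higher or less than 2-fold lower in new hair cells. Espn encodes espin, the main cross-linker of the stereocilia core, whose loss leaves bundles short and thin in the mouse. It stood at 20.1 FPKM in the original and 47.9 FPKM in the new cells, and p in the authors' deposited table was 0.439. It was the most abundant of the 10 genes in new hair cells, with 44.1% of their summed FPKM, and ranked 5 in original hair cells, with 1.93%. Its locus in mm10 is chromosome 4, 152120876 to 152152207, on the minus strand, where the GENCODE annotation lists 20 transcripts. Short and long espins were therefore not told apart.

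Fscn1 encodes the widely expressed fascin of filopodia (chromosome 5, 142960355 to 142973189, plus strand). Its level was 13.1 FPKM in the original and 19.1 FPKM in the new cells, and p in the authors' deposited table was 0.799. Triobp stood at 17.4 FPKM in the original and 23.1 FPKM in the new cells, and p in the authors' deposited table was 0.782 (chromosome 15, 78947724 to 79011041, plus strand). Triobp gives rise to a long form found in rootlets and to a short, widely expressed form, and the gene value holds both. These genes ranked 2 and 3 in new hair cells, Triobp ahead of Fscn1, where they had been 6 and 7 in original hair cells.

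Pls1 encodes plastin 1, also called fimbrin, a bundler needed to keep stereocilia at full width in the adult mouse. It stood at 5.48 FPKM in the original and 4.61 FPKM in the new cells, and p in the authors' deposited table was 0.902 (chromosome 9, 95752642 to 95845279, minus strand). Eps8l2, a relative of Eps8 needed to maintain stereocilia, had nearly equal values of 2.92 and 3.01 FPKM, and p in the authors' deposited table was 0.98 (chromosome 7, 141339002 to 141365110, plus strand). Xirp2 was low in both groups, at 0.205 FPKM in the original and 0.14 FPKM in the new cells, and was not tested (chromosome 2, 67446002 to 67526606, plus strand). The depth of the libraries is unknown, so no limit of detection could be given for it.

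The loci of Eps8l2 and Triobp were shared with other rows of the table. That of Eps8l2 overlaps the transcript B230206H07Rik on the other strand, and that of Triobp overlaps the antisense gene Gm10865 and the microRNA gene Mir6956. Whether reads were counted by strand was not stated in the labels, so reads of such genes cannot be told apart. Without rows that share a locus, 2 of the 7 remaining genes were higher in new hair cells, Espn and Fscn1.

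The balance between paralogues differed between the groups. A ratio of a pair of genes inside a group is unchanged when a column is multiplied by 1 factor, as in trimmed-mean or equal-sum scaling. Quantile normalization does move it. Espn was at 0.409 times the level of Espnl in original hair cells and at 14.9 times its level in new hair cells, a 36.4-fold change of the ratio, or 5.19 on the log2 scale and 6.77 after quantile normalization. Fscn1 over Fscn2 went from 0.223 to 11.0, a 49.4-fold change, or 5.63 on the log2 scale and 6.78 after quantile normalization. Eps8 over Eps8l2 went the opposite way, from 9.68 to 0.181. In each of these 3 pairs the more abundant gene of original hair cells was the less abundant one of new hair cells.

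For the members with a paralogue outside the list, Grxcr1 over Grxcr2, a second cysteine-rich stereocilia gene, went from 42.0 to 0.126, a log2 change of -8.38, or -9.46 after quantile normalization. Grxcr2 itself stood at 20.2 FPKM in the original and 42.0 FPKM in the new cells, so Grxcr2 was 7.92 times as abundant as Grxcr1 in new hair cells. Pls1 over Pls3, the plastin of many non-sensory cells, went from 5.06 to 1.56, the smallest change of the 6 ratios, and Pls1 stayed the higher one. Actg1 over Actb, the gamma and beta actins that make up the filaments, went from 28.0 to 3.19. In all 6 pairs the gene that was higher in original hair cells stood lower relative to its paralogue in new hair cells. This order uses the level in original hair cells, which is also part of the change. Across the whole table, genes with high levels in original hair cells mostly stood lower in new ones, as described below. The direction is therefore no result about these pairs. Among other pairs, given at the end, Tmod1 over Tmod3 and Gnai2 over Gnai3 went the other way. Each ratio rests on 4 values without replicate error, and no test of it was possible.

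**Figure D2:**
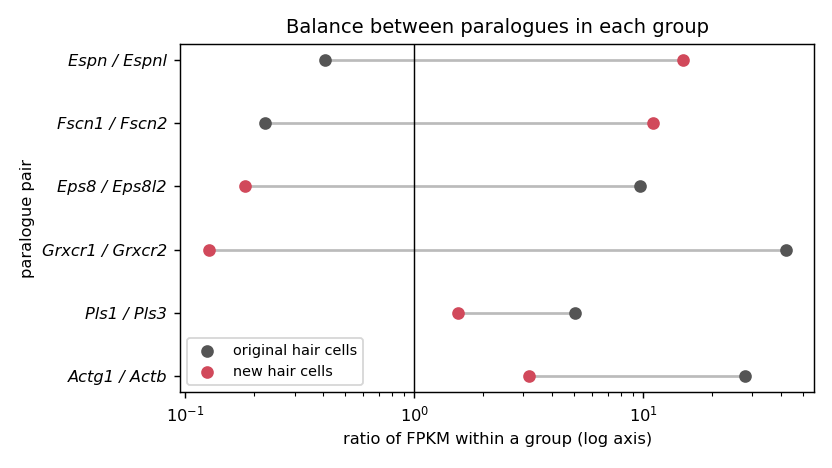
Ratio of FPKM between paralogues in original (grey) and new (red) hair cells, on a log axis. The line marks a ratio of 1. The ratio crosses it for the espin, fascin, EPS8 and GRXCR pairs, and not for plastins and actins.

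The level of a gene in original hair cells bore on its difference across the whole table. Of the 424 tested genes with 1000 FPKM or more in original hair cells none was higher in new hair cells, and of the 1010 genes from 100 to 1000 FPKM 2.77% were. Grxcr1 belongs to the latter class, whose median difference was -4.31 with quartiles of -5.79 and -2.86, so the -7.07 of Grxcr1 was below the lower quartile. Of the 2065 genes from 10 to 100 FPKM, 26.0% were higher and 55.7% were at least 2-fold lower in new hair cells. Espn, Espnl, Eps8, Fscn1, Fscn2 and Triobp all belong to this class, and 3 of them were higher and 3 at least 2-fold lower. Within the class the 3 higher genes, Fscn1, Triobp and Espn, had the lower levels in original hair cells, 13.1 to 20.1 FPKM, and the 3 lower genes, Eps8, Espnl and Fscn2, the higher levels, 28.3 to 59.0 FPKM. The median of the class was -1.43, with quartiles of -3.22 and 0.05, so Fscn2, Eps8 and Espnl lay below the lower and Espn, Fscn1 and Triobp above the upper quartile. These classes use the level in original hair cells, which is also part of the difference.

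**Figure D3:**
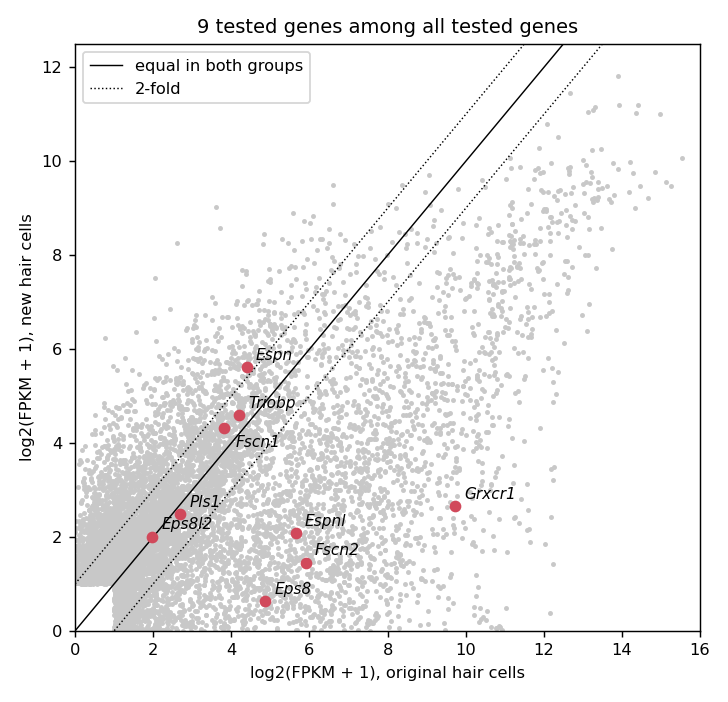
Level of the 9026 tested genes (grey points) in original and new hair cells as log2(FPKM + 1), with the 9 tested members in red and named. The solid line marks equal levels and the dotted lines a 2-fold difference. Grxcr1, Fscn2, Eps8 and Espnl lie far under the solid line, Espn lies above the upper dotted line, and the other members lie between the dotted lines.

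Column totals differed, and the scaling chosen bears on the direction of many genes, not only of those near 0. For example, Capza1 stood at -2.79 on the deposited scale and at 0.18 once both columns had equal sums. The original column summed to 2165833 FPKM and the new column to 244225 FPKM, 8.87-fold apart. Across all tested genes the median difference moved from -0.21 on the deposited scale to 0.06 when the columns were aligned by a trimmed mean of their ratios, to 0.26 after quantile normalization and to 2.53 once both columns had equal sums. At least 2-fold differences were 36.3% upward on the deposited scale (1793 higher and 3149 lower), 54.9% after quantile normalization (2870 and 2362) and 82.3% with equal sums (6278 and 1354). Grxcr1, Fscn2, Eps8 and Espnl were lower in new hair cells, and Espn, Fscn1, Triobp and Eps8l2 higher, under all 4 scalings. Pls1 turned from -0.21 to 0.08, 0.23 and 2.69 in the order given above. With equal sums the difference of Grxcr1 was -4.14, that of Eps8 -2.32, that of Fscn2 -1.87 and that of Espnl -0.77. Espn stood 1.42 above the median of all tested genes on the deposited scale, and at 4.33 against the median of 2.53 with equal sums. Fscn1 at 3.59 and Triobp at 3.49 were also above that median, whereas Eps8l2 at 2.82 and Pls1 at 2.69 were close to it.

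The summed FPKM of the 10 genes was 1043 in the original and 109 in the new cells, a 9.59-fold difference. As a share of the FPKM sum of its column, that was 0.0481% in the original and 0.0445% in the new cells. Without Grxcr1 the sums were 196 and 103 FPKM, a 1.89-fold difference.

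**Figure D4:**
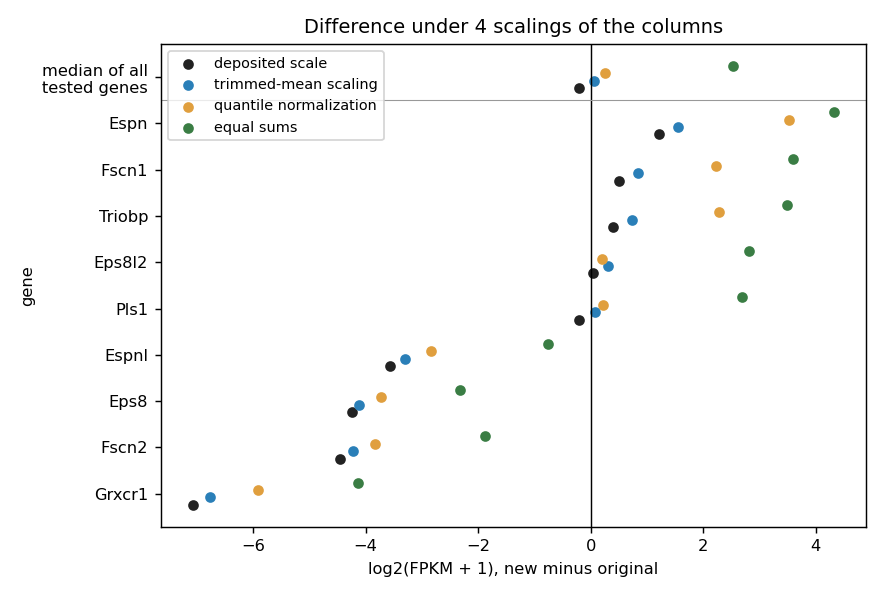
Difference in log2(FPKM + 1), new minus original, of the 9 tested genes and of the median of all tested genes under 4 scalings of the columns. Espnl, Eps8, Fscn2 and Grxcr1 stay left of 0 under each, and Pls1 lies left of 0 on the deposited scale only.

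Hair cell markers were examined as a check of the sorted cells. Of 9 markers, all tested, 9 were lower in new hair cells on the deposited scale, where 54.7% of all tested genes were lower. Their sums were 41459 FPKM in the original and 1042 FPKM in the new cells. Ocm, at 26071 and 592 FPKM, and Pvalb, at 9074 and 123 FPKM, made up most of both sums. No tested gene with 1000 FPKM or more in original hair cells, as these have, was higher in new ones. Pou4f3 and Cib2 were higher under quantile normalization and equal sums, Pou4f3 also when aligned by the trimmed mean. Among them Myo7a, the myosin of the hair bundle, stood at 159 FPKM in the original and 1.77 FPKM in the new cells. Pou4f3, a transcription factor of hair cells, had nearly equal values of 16.7 and 16.1 FPKM. Of 10 supporting cell markers 9 were tested and 6 of them were higher in new hair cells, against 45.3% of all tested genes. The sums of this list were 20843 and 5337 FPKM. S100a1, at 15179 and 3617 FPKM, and Fbxo2, at 5421 and 667 FPKM, made up most of these sums and were lower on the deposited scale, as was Sox2. All 9 were higher under quantile normalization and equal sums. Sums of other cell types were 3521 and 74.2 FPKM for 6 spiral ganglion neuron markers, 3797 and 421 FPKM for 8 mesenchyme markers, 999 and 29.5 FPKM for 6 Schwann cell and glia markers, and 6.13 and 73.4 FPKM for 7 macrophage and immune markers. In original hair cells Nefl, at 3214 FPKM, and Cnp, at 983 FPKM, made up most of the neuron and glia sums. Higher in new hair cells were 1 of 4 tested neuron markers, Snap25 (1.59 and 2.27 FPKM), and 1 of 7 tested mesenchyme markers, Lum (89.4 and 375 FPKM). So were 2 of 5 tested glia markers, Sox10 (2.84 and 15.7 FPKM) and Mbp (2.31 and 7.35 FPKM), against 45.3% of all tested genes. The other 6 tested mesenchyme markers were lower on the deposited scale, Dcn 1.29-fold and the rest 79.7-fold or more. Among them Vim (1765 and 9.49 FPKM) and Otor (1383 and 0.226 FPKM) made up most of the mesenchyme sum in original hair cells. Of the immune sum in new hair cells 71.7 FPKM were Tyrobp, which stood at 3.24 FPKM in original hair cells, whereas C1qb went from 2.08 to 0.364 FPKM and C1qa from 0.31 to 0.0498 FPKM. Prph of the neuron list and Aif1 of the immune list were listed at 0 in new hair cells, and Ptprc of the immune list in both groups. The part of these markers in the values of the 10 genes was not tested, and in sorted bulk samples fewer cells of a type and less RNA per cell cannot be told apart.

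Other actin genes also held both large and small differences. As background for the counts of the 6 lists below, 45.3% of all 9026 tested genes were higher and 54.7% lower in the new cells on the deposited scale. Of 12 actins and paralogues of the members, 5 were tested, 2 higher and 3 lower in the new cells, and with quantile normalization or equal sums 4 were higher. Actg1 stood at 6682 FPKM in the original and 637 FPKM in the new cells. Actb stood at 239 and 200 FPKM, and the cross-linker Actn4 at 100.2 and 37.9 FPKM. No tested gene of this list had an unadjusted p below 0.05 in the authors' deposited table. Over all tested genes 8.83% had such a p with a lower level in new hair cells, and 0.554% with a higher one.

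Among 13 genes of actin capping, severing and filament length, all tested, 2 were higher and 11 lower in the new cells. Of all tested genes 45.3% were higher and 54.7% lower. After quantile normalization 7 of the 13 were higher, and with equal sums 10. Twf2, a twinfilin that caps filament ends and is found in shorter stereocilia of the mouse, was the most abundant on average, at 2348 FPKM in the original and 16.3 FPKM in the new cells (p = 0.0246 in the authors' deposited table). Cap1, which helps to recycle actin monomers, stood at 696 and 14.7 FPKM, and p in the authors' deposited table was 0.0451. Cfl1, the filament-severing cofilin, stood at 459 and 85.6 FPKM, and was higher in the new cells after quantile normalization or with equal sums. Capzb, the beta subunit of capping protein, stood at 21.5 and 68.7 FPKM and, with Gsn, the severing protein gelsolin at 94.5 and 247 FPKM, made up the 2 higher genes of this list.

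Partners of EPS8 at the tip and genes that set the order of stereocilia rows went both ways. Of 9 genes 6 were tested, with 4 higher and 2 lower in the new cells, against 45.3% and 54.7% of all tested genes. Insc, a polarity adaptor, stood at 1283 FPKM in the original and 11.3 FPKM in the new cells, and p in the authors' deposited table was 0.041. Baiap2l2, a membrane-bending protein of the transducing rows, stood at 109 and 2.02 FPKM, and p in the authors' deposited table was 0.028. Gnai2, a G protein subunit, stood at 39.8 and 85.4 FPKM. Myo15, the motor that carries EPS8 to the tip, stood at 0.978 FPKM in the original and 1.02 FPKM in the new cells, while Eps8 itself differed 51.7-fold.

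Of 9 genes of the stereocilia taper and base, all tested, 3 were higher and 6 lower, against 45.3% and 54.7% of all tested genes. Their median difference of -2.39 moved to 0.23 with equal sums, and that of all tested genes from -0.21 to 2.53. Rdx, which encodes radixin, a linker of actin to the membrane, stood at 469 and 12.8 FPKM. Elmod1, a regulator of small GTPases, stood at 346 and 12.7 FPKM, and Myo6, the motor at the base of stereocilia, at 284 and 14.6 FPKM, with p = 0.0316 for Myo6 in the authors' deposited table. All 3 were lower under each of the 4 scalings.

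Of 16 genes of actin nucleation and signalling 14 were tested, with 5 higher and 9 lower, against 45.3% and 54.7% of all tested genes. After quantile normalization 11 of the 14 were higher in the new cells, and with equal sums 13. Pfn2, a profilin that feeds actin to growing filaments, stood at 1249 and 16.8 FPKM (p = 0.0069 in the authors' deposited table). Pfn1, its widely expressed relative, stood at 202 and 243 FPKM, and the small GTPase Cdc42 at 134 and 50.8 FPKM. Of 8 spectrin, tropomyosin and cuticular plate genes 6 were tested, 3 higher and 3 lower, with 5 higher under equal sums. Lmo7, a protein of the cuticular plate into which rootlets insert, stood at 119 and 8.66 FPKM, Tpm1 at 50.8 and 45.9 FPKM and Tpm3 at 12.2 and 20.6 FPKM. No member of the 6 lists had an adjusted p below 0.05, against 0% of all tested genes.

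**Figure D5:**
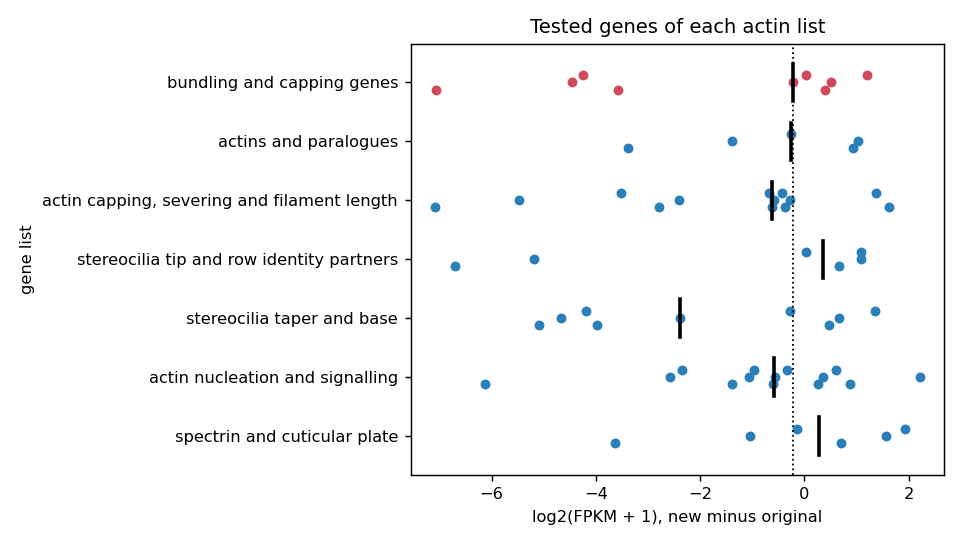
Difference in log2(FPKM + 1), new minus original, of each tested gene of the bundling and capping genes (red) and of 6 other actin lists (blue), on the deposited scale. Thick bars are list medians, and the dotted line is the median of all tested genes at -0.21. Each list holds genes from below -3 to near or above 1.

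Genes with the levels most like those of the extreme members were sought among all tested genes with a named symbol, by distance in log2(FPKM + 1) over the 2 group values. Nearest to Espn were Tm2d3 (20.4 and 49.8 FPKM), Ppp2r1a (19.0 and 48.5 FPKM) and Immp1l (20.5 and 44.9 FPKM), at distances of 0.06, 0.08 and 0.09. Nearest to Grxcr1 were Abracl (819 and 5.36 FPKM), Yipf1 (772 and 5.65 FPKM) and Phospho2 (732 and 5.20 FPKM), at distances of 0.05, 0.15 and 0.21. With only 2 values per gene such likeness is weak, and 20 named genes lay within a distance of 0.25 of Espn and 4 of Grxcr1.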

How the data were processed

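RNA was measured in 4 sequencing libraries, 2 of original and 2 of new hair cells, grouped by the sample titles. Per the labels' protocols, total RNA went into libraries by way of the SMART-Seq v4 kit for very low input. The submitters' processing notes name CASAVA 1.8, Trimmomatic, TopHat and the build mm10. They do not name the program behind the FPKM values or the test behind the p-values. Per the file headers, the authors deposited a single FPKM value for each group and gene, so the 2 libraries of a group had been combined, how was not stated. Beside it the authors deposited a log2 ratio and an unadjusted p-value for each gene. Depth per library is unknown.

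Genes with at least 1 FPKM in 1 group and above 0 in both were tested. Differences are log2(FPKM + 1), new minus original, where the pseudocount of 1 makes changes of low genes look smaller. Folds are plain FPKM ratios. Benjamini-Hochberg adjustment was applied to these p-values over all tested genes, with a threshold of 0.05. A test across libraries (limma) was planned and could not be fitted, since it needs a value per library. Other settings were no filter, a pseudocount of 0.1, a 5 FPKM filter, leaving out rows that share a locus, and 3 scalings. These were trimmed-mean scaling (trimming 30% of ratios and 5% of levels from either end), quantile normalization over the tested genes, and multiplying the new column to equal FPKM sums. The paralogue ratios and their alternatives were added after seeing the data. The adjustment and the trimmed-mean scaling were tested on simulated data with known changes. For quantile normalization only the equality of the sorted columns was checked, which holds by construction. Equal-sum scaling was not tested in this way.

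The 10 members and all gene lists were chosen with earlier results of these data known. Named were all members, the 3 genes of highest mean FPKM per list and the 3 genes nearest to the members with the largest rise and fall. Grxcr2, Pls3, Capzb, Gsn, Myo15, Capza1 as an example of scaling, Pfn1 as a pair with Pfn2, and the marker genes named were chosen after their values were seen. Of listed symbols, 6 were found under an older symbol (such as Myo15 for Myo15a). File starts count from 0, so 1 was added. Scripts ran on Python 3.11.15 with pandas 2.3.3, numpy 2.4.6 and scipy 1.17.1, and figures on matplotlib 3.10.9.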

Additional observations from a re-analysis of the deposited data

How the results depend on the processing

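No paired analysis was possible because the deposited table has no value per library. For the same reason leaving out each library in turn and the replicate block were not run. The median difference of the members, -0.21 in the report, was -0.25 with a pseudocount of 0.1, -0.14 without a filter, -3.57 when rows that share a locus were left out and -1.89 with a filter of 5 FPKM. It was 0.082 after alignment by the trimmed mean, 0.21 after quantile normalization and 2.69 with equal sums. Pls1 took 0.082, 0.23 and 2.69 under these 3 scalings, and no other tested member changed sign under any setting tried. The number of members higher was 2 without rows sharing a locus, where 7 genes remained by construction. It was within 1.5 times the 4 of the report under the other settings. No member passed the adjusted threshold over the tested genes or over all rows (0 in both).

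At least 2-fold higher were 2870 genes with quantile normalization, 6278 with equal sums and 1165 with a filter of 5 FPKM, and at least 2-fold lower 1354 with equal sums. For the other lists, numbers of genes higher that moved by over 1.5 times were as follows. Actins and paralogues had 4 with quantile normalization, equal sums or no filter, and 1 with a filter of 5 FPKM. Capping and severing genes had 7 with quantile normalization and 10 with equal sums, nucleation genes 11, 13 and, with a filter of 5 FPKM, 3. Taper genes had 5 with equal sums and 1 with a filter of 5 FPKM, and spectrin genes 5 with equal sums. List medians that changed sign were those of actins (0.091 with the trimmed mean, 1.11 after quantile normalization, 2.89 with equal sums, 0.93 without shared loci), capping genes (0.61 with quantile normalization and 1.75 with equal sums), nucleation genes (0.84 and 2.46 likewise), taper genes (0.23 with equal sums) and spectrin genes (-0.14 without shared loci). Each of the 6 paralogue ratios kept its direction with quantile normalization and with a pseudocount of 1. The cause of these changes was not tested.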

Other observations

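The fascin genes lie beside the actin genes in the mouse genome. In mm10 Fscn1 and Actb lie 53.6 kb apart on chromosome 5, with no other row of the table between them. Fscn2 and Actg1 lie 13.0 kb apart on chromosome 11, with the single row 0610009L18Rik between them. On the deposited scale Fscn1 was 1.45-fold higher and Actb lower in new hair cells, Actb standing at 239 FPKM in the original and 200 FPKM in the new cells. Under the other scalings Actb was higher, as Fscn1 was. Actb stood at 0.09 on the log2 scale with the trimmed mean, 2.94 with quantile normalization and 2.89 with equal sums. Fscn2 and Actg1 were both lower in new hair cells, Fscn2 33.9-fold and Actg1 10.5-fold, with Actg1 at 6682 and 637 FPKM. The gene between the latter did not share this, at 3.21 and 4.55 FPKM. Under quantile normalization and equal sums Actg1 stood at -0.05 and -0.24 on the log2 scale, close to equal levels, while Fscn2 stood at -3.82 and -1.87. These neighbours were looked up after the values were seen.

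Ratios were also taken for 8 paralogue pairs outside the bundling genes, again chosen after their values were seen. Pfn2 over Pfn1, the profilins, went from 6.18 in original to 0.0691 in new hair cells, and Twf2 over Twf1, the twinfilins, from 17.1 to 0.191. Cap1 over Cap2 went from 659 to 24.8. The ratio changed less for Capza1 over Capza2, from 1.49 to 0.289, and for Cfl1 over Dstn, from 5.78 to 1.46. Tmod1 over Tmod3 went from 12.7 to 21.1, Gnai2 over Gnai3 from 8.37 to 10.5 and Sptbn1 over Sptb from 18.1 to 14.9.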
